A study of Mus musculus with 8 samples.

Results

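The axon guidance ligands and receptors were examined across 3 populations of thymic epithelial cells (TECs) from the mouse embryonic thymus. The set was taken from the gene symbols of the count table and holds the semaphorins, plexins, neuropilins, ephrins, Eph receptors, netrins, Unc5 receptors, Slits, and Robo receptors. Of 55450 genes in the table, 71 belonged to it, with 68 protein-coding genes (35 ligands and 33 receptors) and 3 antisense transcripts of Plxna4. The cells were CD45-EpCAM+ TECs sorted at E17 from embryos that carried a tdTomato knock-in at Ccl21a in the heterozygous state and a Venus transgene reporting Tnfrsf11a, which encodes RANK. No other treatment or allele was named, and all 3 populations came from embryos of this genotype. CCL21+RANK- TECs were tdTomato-positive and Venus-negative (3 libraries), CCL21-RANK+ TECs were Venus-positive and tdTomato-negative (3 libraries), and CCL21-RANK- TECs had neither reporter (2 libraries). They are called CCL21+, RANK+, and double-negative TECs here. A reporter marks cells by fluorescence and not by the transcript of the moment. The study describes its replicates as biological but the labels do not tie libraries to embryos or litters, so that the p-values measure the spread between these libraries. The libraries held 59677342, 46003149, and 55116934 counts in CCL21+, 57286773, 50146758, and 42751858 counts in RANK+, and 67451448 and 71625319 counts in double-negative TECs.

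Axon guidance genes were first described for steering growing nerve fibres, and the same ligands and receptors position cells in many tissues. Secreted class 3 semaphorins act through neuropilins and plexins, the membrane-bound semaphorins through plexins, Slits through Robo receptors, and netrins through Dcc and Unc5 receptors, whereas ephrins and Eph receptors signal between touching cells in both directions. In the thymus, Eph receptors and ephrins are known to shape the epithelial network, and semaphorins and their plexins are known for guiding thymocytes between cortex and medulla.

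Each transcript behind the sort was highest in the population of its label. Levels are given as RPKM, in which counts are scaled to exon length and library total so that genes can be compared. Tnfrsf11a was at 8.78, 9.44, and 10.3 RPKM in CCL21+, 111, 93.1, and 107 RPKM in RANK+, and 2.62 and 2.26 RPKM in double-negative TECs, and Ccl21a was at 561, 346, and 306 RPKM in CCL21+, 152, 95.9, and 78.2 RPKM in RANK+, and 6.89 and 8.88 RPKM in double-negative TECs. Ccl21a was thus highest in CCL21+ TECs, but the tdTomato-negative RANK+ TECs also held more of it than the double-negative TECs in every library. In the same way, the Venus-negative CCL21+ TECs held more Tnfrsf11a than the double-negative TECs in every library (log2 fold change 1.96, edgeR adjusted p = 8.7e-05). Epcam was at 49.5 RPKM or more in all 8 libraries, and Aire, the regulator of self-antigen expression in the medulla, reached 131, 94.1, and 114 RPKM in RANK+ TECs and 0.81 RPKM at most elsewhere. Foxn1, the master regulator of TECs, was at 85.4, 93.2, and 105 RPKM in CCL21+, 54.5, 55.0, and 50.7 RPKM in RANK+, and 82.2 and 85.4 RPKM in double-negative TECs.

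More guidance genes were over 1 RPKM in RANK+ TECs than in the other populations. Of the 68 coding genes, 45 had a mean over 1 RPKM in RANK+ TECs, 32 in CCL21+ TECs, and 32 in double-negative TECs, which was 66.2%, 47.1%, and 47.1%, beside 70.6%, 63.4%, and 62.7% of the 16978 protein-coding genes tested. The order of the populations was thus that of protein-coding genes at large. By library, 48, 43, and 44 genes were over 1 RPKM in RANK+, 31, 31, and 33 in CCL21+, and 31 and 33 in double-negative TECs, so that the RANK+ libraries stood apart from the other 5. The high end showed no such order, since 14, 11, and 15 genes had a mean over 10 RPKM in CCL21+, RANK+, and double-negative TECs. On average, 14 genes passed 1 RPKM in RANK+ TECs alone, 20.6% of the set beside 9.19% of the protein-coding genes tested. They were the ligands Sema3a, Sema3b, Sema3c, Sema4a, Sema6b, Sema7a, Ntn1, Ntn4, Ntn5, Slit1, and Slit3 and the receptors Nrp2, Plxna3, and Plxna4. Sema3d did so in CCL21+ TECs alone, and Plxnc1 and Efna3 in double-negative TECs alone. In these bulk libraries, fewer cells that use a gene and less of its RNA per cell cannot be told apart.

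**Figure D1:**
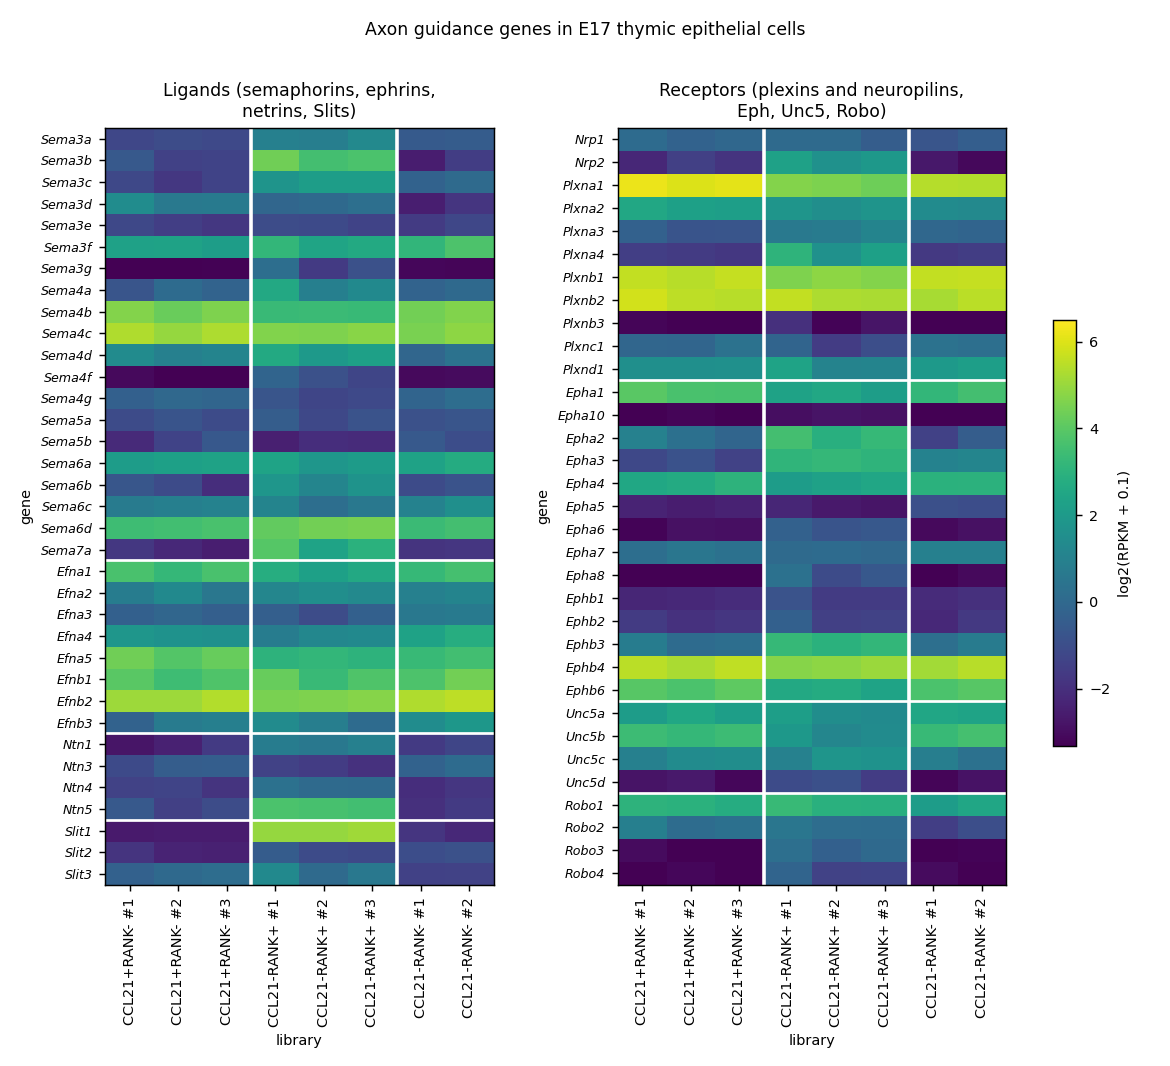
Level of the 35 ligands and 33 receptors in each of the 8 libraries, as log2(RPKM + 0.1), with libraries on the horizontal axis and genes on the vertical axis. White lines part the populations and the gene families, and the 3 CCL21-RANK+ columns hold 43 to 48 genes over 1 RPKM against 31 to 33 in the other columns.

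Between the 2 reporter-positive populations, 18 guidance genes were higher and 15 were lower in RANK+ than in CCL21+ TECs. The genes that were higher were 12 ligands and 6 receptors, with Slit1, Sema7a, Sema3b, Ntn5, Epha3, Plxna4, and Nrp2 at the largest differences. The genes that were lower were 7 ligands and 8 receptors, with Unc5b, Plxna1, Epha1, and Ephb6 at the largest differences. A gene was called when the edgeR quasi-likelihood test gave an adjusted p under 0.05, the fold change was over 1.5, and the mean in the higher population was over 1 RPKM. The 18 genes called higher were 26.5% of the 68 coding genes, where 15.4% of all 21451 genes tested were called higher, and the 15 called lower were 22.1%, where 15.4% of all genes were. By a formal edgeR test of a fold over 1.5, 17 were higher (25%, beside 12.3% of all genes) and 8 were lower (11.8%, beside 11.2%), so that the share called lower was then near that of all genes. The median log2 fold change of the guidance genes was 0.25, beside 0.11 for all genes tested, but the order turned with the genes included, at 0.30 beside 0.40 without an expression filter. It also moved with single libraries, to 0.14 beside 0.12 without CCL21+ replicate 1 and 0.13 beside 0.11 without CCL21+ replicate 3. Without CCL21+ replicate 2 it was 0.38 beside 0.15. The libraries of the 2 populations did not overlap in 29 guidance genes in the higher direction (42.6%, beside 33.7% of all genes) and in 20 in the lower direction (29.4%, beside 27.5% of all genes). All 68 coding genes passed the expression filter. Leaving out any library of these 2 populations left 17 to 20 genes called higher and 13 to 15 called lower. The shares of all genes called in those fits are not given.

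**Figure D2:**
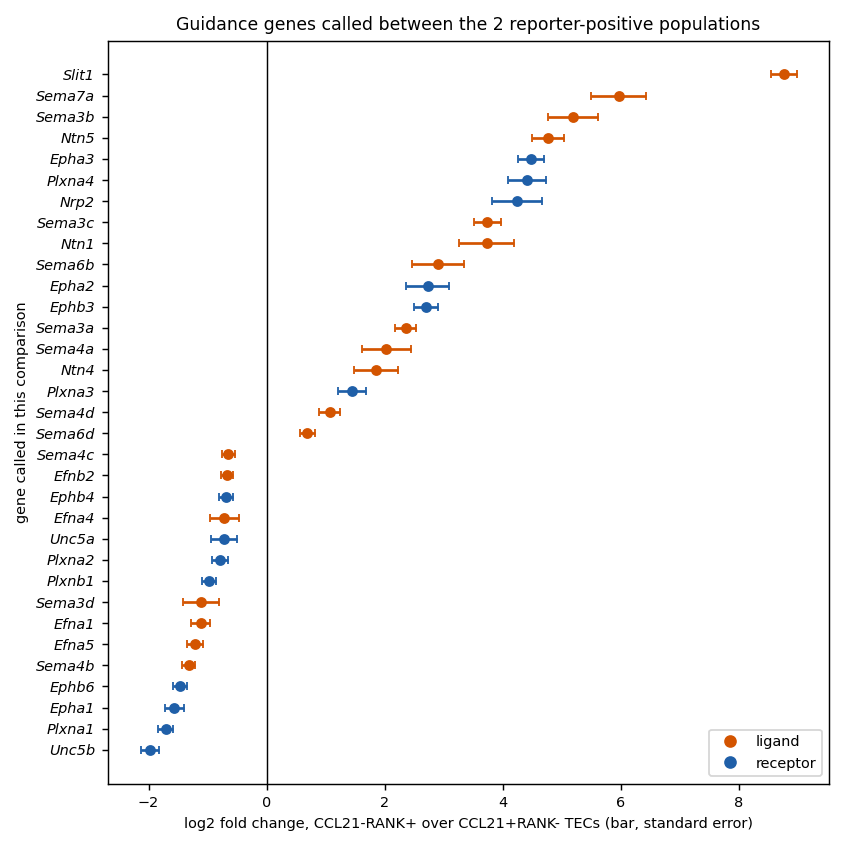
Log2 fold change of CCL21-RANK+ over CCL21+RANK- TECs from edgeR, with bars for the standard error, for the 33 guidance genes called in this comparison (18 higher, 15 lower). Ligands and receptors are coloured separately, and the values run from -1.98 for Unc5b to 8.76 for Slit1.

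The calls were spread over the families, and are to be read beside the 15.4% of all genes called higher and 15.4% called lower. Of 20 semaphorins 8 were higher and 3 were lower in RANK+ TECs, of 11 plexins and neuropilins 3 and 3, of 14 Eph receptors 3 and 3, and of 8 netrins and Unc5 receptors 3 and 2. None of the 8 ephrins was higher and 4 were lower, and of 7 Slits and Robo receptors 1 was higher and none lower. In families this small, none or 1 gene called lies near the shares of all genes. Within the netrin group the calls were 3 ligands higher and 2 receptors lower. The ligand Ntn3 and the receptor Unc5d, both too low to be called, lay the other way, with log2 fold changes of -1.41 (edgeR adjusted p = 0.0083) and 3.04 (edgeR adjusted p = 0.00514).

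The sequences just upstream of 4 of these genes are shown because the genes were called in opposite directions, Ntn5 and Epha3 being higher and Unc5b and Efna5 lower in RANK+ TECs. Each is the 250 bases before the RefSeq start of the gene (GRCm38.p6), written 5′ to 3′ on the strand of the gene, with each CG dinucleotide in capitals. The Ntn5 window (chr7:45683772-45684021, plus strand) held 2 CG, the Epha3 window (chr16:63864176-63864425, minus strand) 16, the Unc5b window (chr10:60831582-60831831, minus strand) 27, and the Efna5 window (chr17:62881318-62881567, minus strand) 32. Exons of Ntn5 overlap exons of Sec1 on the opposite strand.
Ntn5: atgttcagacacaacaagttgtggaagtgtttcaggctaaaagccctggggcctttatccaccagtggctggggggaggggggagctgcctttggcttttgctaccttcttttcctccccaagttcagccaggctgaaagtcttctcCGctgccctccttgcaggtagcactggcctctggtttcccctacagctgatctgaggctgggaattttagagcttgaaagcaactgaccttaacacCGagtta
Epha3: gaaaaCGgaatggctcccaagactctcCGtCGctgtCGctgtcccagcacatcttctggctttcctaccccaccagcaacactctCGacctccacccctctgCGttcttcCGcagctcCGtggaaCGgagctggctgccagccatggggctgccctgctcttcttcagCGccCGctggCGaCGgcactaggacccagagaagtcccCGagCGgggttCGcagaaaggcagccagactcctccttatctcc
Unc5b: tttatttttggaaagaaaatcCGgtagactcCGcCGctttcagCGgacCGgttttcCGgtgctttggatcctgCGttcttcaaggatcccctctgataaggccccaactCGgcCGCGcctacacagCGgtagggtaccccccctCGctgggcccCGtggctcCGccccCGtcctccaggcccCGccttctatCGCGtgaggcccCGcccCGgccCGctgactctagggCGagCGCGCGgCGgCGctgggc
Efna5: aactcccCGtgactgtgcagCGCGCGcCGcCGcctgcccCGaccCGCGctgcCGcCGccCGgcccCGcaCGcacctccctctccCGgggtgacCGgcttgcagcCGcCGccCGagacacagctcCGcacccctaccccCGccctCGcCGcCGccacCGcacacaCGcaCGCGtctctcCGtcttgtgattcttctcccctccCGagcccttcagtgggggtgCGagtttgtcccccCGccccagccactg
Windows were matched for 59 of the 71 genes. The median was 14 CG (range 1 to 39) in the 14 matched genes called higher, 19 CG (range 4 to 32) in the 14 called lower, and 16 CG (range 2 to 46) in the 31 not called, beside a median of 6 over all 32851 RefSeq windows. Ntn5, Sema3a, Sema4a, and Sema4d among the genes called higher, Sema3d among those called lower, and Plxnb3, Robo4, and Sema4f among those not called had at most 4 CG, as did 44.4% of all windows. The nearest windows of Sema3a, Sema4d, and Robo1 lay 271370, 37064, and 354843 bases from the GENCODE start of the gene and so belong to other starts than the outermost one, and all other matched windows lay within 1611 bases of it.

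Slit1, a secreted ligand of Robo receptors, had the largest fold change of the genes called. Slit1 (chromosome 19, 41600257 to 41743665, GRCm38) was at 0.0651, 0.0698, and 0.0674 RPKM in the CCL21+ libraries, 30.9, 30.4, and 34.0 RPKM in the RANK+ libraries, and 0.185 and 0.118 RPKM in the double-negative libraries. The RANK+ libraries were close to each other and far above the other 5. The log2 fold change was 8.76 (SE 0.22) against CCL21+ and 7.59 (SE 0.24) against double-negative TECs, at edgeR adjusted p-values of 2.66e-08 and 1.23e-07. The related ligand Slit3 was at 0.897 ± 0.154 (SD, n = 3), 1.60 ± 0.764 (n = 3), and 0.275 ± 0.00509 RPKM (n = 2), and Slit2 at 0.120 ± 0.0485, 0.444 ± 0.154, and 0.419 ± 0.0214 RPKM.

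Of the receptors for Slits, none was called between the reporter-positive populations. Robo1 was at 8.15, 7.63, and 6.72 RPKM in CCL21+, 9.81, 7.37, and 7.18 RPKM in RANK+, and 4.21 and 5.48 RPKM in double-negative TECs, and Robo2 at 1.77, 1.02, and 1.12 RPKM in CCL21+, 1.33, 1.03, and 1.01 RPKM in RANK+, and 0.258 and 0.414 RPKM in double-negative TECs. Between the reporter-positive populations their log2 fold changes were -0.02 (SE 0.14) and -0.34 (SE 0.23), at edgeR adjusted p-values of 0.92 and 0.233 and overlapping libraries, and the sign for Robo1 turned under other scalings. Robo3 and Robo4 stayed low, but nearly all of their counts were in RANK+ TECs, at 1.10, 0.711, and 0.926 RPKM for Robo3 and 0.797, 0.278, and 0.291 RPKM for Robo4, against 0.0224 RPKM at most in the other 5 libraries. Summed over the 7 genes, Slit and Robo levels were 47.0, 41.1, and 45.1 RPKM in RANK+, 10.9, 9.75, and 9.03 RPKM in CCL21+, and 5.35 and 6.74 RPKM in double-negative TECs, and Slit1 made up most of the sum in RANK+ TECs.

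Among the netrins, secreted proteins related to laminins, Ntn5 showed the clearest difference. Ntn5 (chromosome 7, 45684022 to 45694556) was at 0.567, 0.265, and 0.393 RPKM in CCL21+, 13.0, 12.2, and 11.3 RPKM in RANK+, and 0.154 and 0.221 RPKM in double-negative TECs, with a log2 fold change of 4.77 (SE 0.27, edgeR adjusted p = 1.07e-06) between the reporter-positive populations. The RANK+ libraries did not overlap the others, and the upstream window of Ntn5 shown above was the poorest in CG of the 4. Exons of Ntn5 share 519 bases with exons of Sec1 on the opposite strand, and since the strand setting of the counting is not given in the sources used here, reads of the 2 genes there cannot be told apart. Ntn1, the netrin best known for attracting axons, was at 0.116 ± 0.0868 in CCL21+ and 1.65 ± 0.196 RPKM in RANK+ TECs (SD, n = 3 each), and Ntn4, a netrin found in basement membranes, at 0.255 ± 0.0658 and 1.01 ± 0.121 RPKM. Ntn1 had a log2 fold change of 3.73 (SE 0.47, edgeR adjusted p = 0.000121) and Ntn4 of 1.85 (SE 0.37, edgeR adjusted p = 0.00231). Ntn4 was at 1.15, 0.965, and 0.925 RPKM in the RANK+ libraries, so that its mean passed 1 RPKM, and its call stood, only with replicate 1. Ntn3 stayed under 1 RPKM, at 0.559 ± 0.17, 0.229 ± 0.0599, and 0.865 ± 0.176 RPKM.

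Of the Unc5 receptors, which mediate repulsion by netrins, Unc5a and Unc5b were lower in RANK+ than in CCL21+ TECs. Unc5b (chromosome 10, 60762593 to 60831581) was at 10.7, 9.31, and 10.6 RPKM in CCL21+, 3.70, 2.2, and 2.56 RPKM in RANK+, and 9.60 and 12.1 RPKM in double-negative TECs, and its log2 fold change of -1.98 (SE 0.15, edgeR adjusted p = 5.66e-06) was the lowest of the genes called. The 2 Venus-negative populations overlapped, and the RANK+ libraries lay below both. Unc5a was at 4.26, 5.74, and 4.50 RPKM in CCL21+, 4.39, 2.74, and 2.52 RPKM in RANK+, and 5.5 and 5.03 RPKM in double-negative TECs, with a log2 fold change of -0.73 (SE 0.22, edgeR adjusted p = 0.0184), although RANK+ replicate 1 lay within the CCL21+ range. The call for Unc5a was lost without CCL21+ replicate 2 (log2 fold change -0.50, edgeR adjusted p = 0.113), RANK+ replicate 2 (-0.65 and 0.0611), or RANK+ replicate 3 (-0.55 and 0.0992), and with at least 10 counts in every library (-0.58 and 0.0543). Unc5c was at 2.39 ± 0.487, 2.80 ± 0.824, and 1.45 ± 0.396 RPKM and not called, and Unc5d did not exceed 0.433 RPKM in any library.

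The secreted semaphorins Sema3a, Sema3b, and Sema3c were higher in RANK+ than in CCL21+ TECs. Sema3b (chromosome 9, 107597674 to 107609229) was at 0.568, 0.269, and 0.289 RPKM in CCL21+, 20.8, 11.8, and 13.0 RPKM in RANK+, and 0.0714 and 0.248 RPKM in double-negative TECs. Every RANK+ library was above every other library, with replicate 1 the highest. The log2 fold change over CCL21+ TECs was 5.19 (SE 0.42, edgeR adjusted p = 6.88e-06). The class 3 members Sema3c and Sema3a, the latter a classical repellent that acts through Nrp1, were at 3.99 ± 0.595 and 1.98 ± 0.344 RPKM in RANK+ against 0.276 ± 0.0695 and 0.355 ± 0.0287 RPKM in CCL21+ TECs (SD, n = 3 each). Sema3c had a log2 fold change of 3.74 (SE 0.23, edgeR adjusted p = 1.68e-06) and Sema3a of 2.36 (SE 0.18, edgeR adjusted p = 5.18e-06).

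The membrane-bound semaphorins moved in both directions. Sema7a (chromosome 9, 57940112 to 57962865), which is held in the membrane by a lipid anchor, was at 0.198, 0.119, and 0.0770 RPKM in CCL21+, 14.9, 5.05, and 7.65 RPKM in RANK+, and 0.180 and 0.195 RPKM in double-negative TECs, with a log2 fold change of 5.96 (SE 0.47, edgeR adjusted p = 6.16e-06) over CCL21+ TECs. The 3 RANK+ libraries were spread widely, again with replicate 1 the highest, but lay far above the other 5. Sema6b, Sema4a, Sema4d, and Sema6d were also called higher, with log2 fold changes of 2.91, 2.03, 1.07, and 0.69. Sema4d, a ligand of Plxnb1 that is also used by lymphocytes, was at 2.14 ± 0.382, 4.92 ± 1.13, and 1.02 ± 0.241 RPKM in CCL21+, RANK+, and double-negative TECs (SD, n = 3, 3, and 2), and Sema6d, a ligand of Plxna1, was the most abundant of the semaphorins called higher at 20.4 ± 2.5 RPKM in RANK+ TECs.

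Sema4b and Sema4c, the 2 most abundant semaphorins by the mean of the 3 populations, were lower in RANK+ than in CCL21+ TECs, as was Sema3d. Sema4b was at 25.7, 18.9, and 24.4 RPKM in CCL21+, 9.89, 10.3, and 9.83 RPKM in RANK+, and 21.2 and 24.5 RPKM in double-negative TECs, with a log2 fold change of -1.32 (SE 0.11, edgeR adjusted p = 8.86e-06), and the RANK+ libraries were below all others. Sema4c, a ligand of Plxnb2, was at 39.6, 30.9, and 39.3 RPKM in CCL21+, 24.8, 24.2, and 26.9 RPKM in RANK+, and 22.8 and 28.7 RPKM in double-negative TECs, with a log2 fold change of -0.65 (SE 0.11, edgeR adjusted p = 0.000778), and 334 bases of its exons are shared with D430040D24Rik on the opposite strand. Sema3d had its highest level in CCL21+ TECs, at 2.67, 1.45, and 1.57 RPKM, against 0.849, 0.912, and 1.10 RPKM in RANK+ and 0.0794 and 0.187 RPKM in double-negative TECs. The libraries of the 3 populations did not overlap for Sema3d, but CCL21+ replicate 1 was well above the other 2. Its log2 fold change was -1.11 (SE 0.31, edgeR adjusted p = 0.0133) between the reporter-positive populations and -0.78 (edgeR adjusted p = 0.0571) without that library. The same library held the most parathyroid transcript, with the summed level of Pth, Gcm2, Chga, and Casr at 7122, 1750, and 1955 RPKM in the 3 CCL21+ libraries, at 24.9, 11.1, and 12.0 RPKM in the RANK+ libraries, and at 23.8 and 21.6 RPKM in the double-negative libraries, and its part in the level of Sema3d was not tested.

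**Figure D3:**
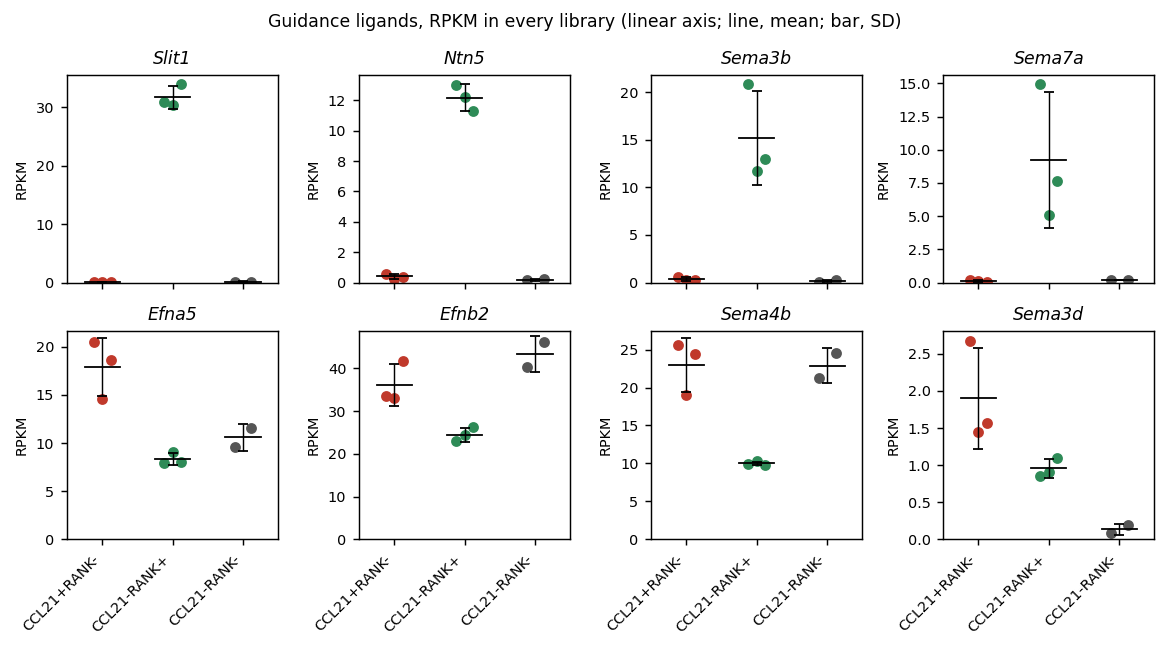
RPKM of 8 guidance ligands in every library on linear axes from 0, with a line for the mean and bars for the SD of each population (n = 3, 3, and 2). Slit1, Ntn5, Sema3b, and Sema7a are high in the 3 CCL21-RANK+ libraries, Efna5, Efnb2, and Sema4b are lowest there, and Sema3d is highest in the CCL21+RANK- libraries.

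Of the ephrins, the membrane-anchored ligands of Eph receptors, none was called higher in RANK+ TECs. Efnb2, the ligand of Ephb4, was the most abundant, at 33.6, 33.0, and 41.7 RPKM in CCL21+, 23.0, 24.3, and 26.2 RPKM in RANK+, and 40.3 and 46.3 RPKM in double-negative TECs, with a log2 fold change of -0.67 (SE 0.11, edgeR adjusted p = 0.000657). Efna5 (chromosome 17, 62604184 to 62881317) was at 20.5, 14.6, and 18.7 RPKM in CCL21+, 7.97, 9.07, and 7.99 RPKM in RANK+, and 9.62 and 11.6 RPKM in double-negative TECs, with a log2 fold change of -1.21 (SE 0.13, edgeR adjusted p = 4.41e-05). For both genes the RANK+ libraries were the lowest, and for Efna5 the CCL21+ libraries were above all others. Efna1 had a log2 fold change of -1.12 (SE 0.16, edgeR adjusted p = 0.000278), with 11.6 ± 2.09 RPKM in CCL21+ and 5.81 ± 1.07 RPKM in RANK+ TECs (SD, n = 3 each). Efna4, at 3.48, 3.13, and 2.93 RPKM in CCL21+, 1.64, 2.22, and 2.44 RPKM in RANK+, and 4.95 and 6.85 RPKM in double-negative TECs, had a log2 fold change of -0.71 (SE 0.25, edgeR adjusted p = 0.035), and this call was lost without CCL21+ replicate 1 or 2, without RANK+ replicate 1, or without either double-negative library, and likewise without an expression filter, with at least 10 counts in every library, or with only the libraries compared, at edgeR adjusted p-values from 0.0529 to 0.0861. Efnb1, at 15.6, 10.8, and 13.9 RPKM in CCL21+, 18.3, 10.1, and 13.6 RPKM in RANK+, and 13.4 and 21.4 RPKM in double-negative TECs, overlapped between all populations (log2 fold change -0.07, SE 0.20, edgeR adjusted p = 0.802, with the sign turning under other scalings). Efna2, Efna3, and Efnb3 were not called in this comparison.

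The Eph receptors, the largest family of receptor tyrosine kinases, were divided. Epha3 (chromosome 16, 63543534 to 63864175) was at 0.337, 0.455, and 0.282 RPKM in CCL21+, 8.54, 9.20, and 8.38 RPKM in RANK+, and 1.96 and 2.14 RPKM in double-negative TECs. The 3 populations were fully separate, with the double-negative libraries in between, and the log2 fold change of RANK+ over CCL21+ TECs was 4.48 (SE 0.22, edgeR adjusted p = 5.42e-07). Epha2, an Eph receptor common in epithelia, was at 1.91, 1.14, and 0.815 RPKM in CCL21+, 11.6, 7.14, and 9.57 RPKM in RANK+, and 0.276 and 0.651 RPKM in double-negative TECs (log2 fold change 2.73, SE 0.36, edgeR adjusted p = 0.000169). Ephb3 was at 1.23 ± 0.351 and 8.74 ± 0.991 RPKM in CCL21+ and RANK+ TECs (SD, n = 3 each), with a log2 fold change of 2.70 (SE 0.20, edgeR adjusted p = 4.41e-06). These 3 receptors were the Eph receptors called higher.

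Lower in RANK+ TECs were Ephb4, Epha1, and Ephb6. Ephb4 was the most abundant Eph receptor, at 44.4, 37.6, and 46.5 RPKM in CCL21+, 26.4, 28.0, and 32.0 RPKM in RANK+, and 35.0 and 44.0 RPKM in double-negative TECs, with a log2 fold change of -0.68 (SE 0.12, edgeR adjusted p = 0.000852). Epha1 was at 15.6, 12.7, and 12.3 RPKM in CCL21+, 4.91, 5.75, and 4.28 RPKM in RANK+, and 8.95 and 11.7 RPKM in double-negative TECs and had a log2 fold change of -1.56 (SE 0.16, edgeR adjusted p = 3.39e-05). Its exons share 236 bases with Zyx on the opposite strand. Ephb6, an Eph receptor without kinase activity, was at 15.3, 13.1, and 16.5 RPKM in CCL21+, 5.95, 6.5, and 5.13 RPKM in RANK+, and 13.0 and 15.5 RPKM in double-negative TECs, with a log2 fold change of -1.46 (SE 0.12, edgeR adjusted p = 7.1e-06). For all 3 receptors the RANK+ libraries were below the other 5. Efnb2 and its receptor Ephb4 thus had nearly equal log2 fold changes, -0.67 and -0.68, whereas Slit1 and Robo1 had 8.76 and -0.02.

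Plxna1, a plexin that serves as receptor for class 3 and class 6 semaphorins, was the most abundant guidance gene of CCL21+ TECs. Plxna1 (chromosome 6, 89316314 to 89362620) was at 74.3, 63.7, and 69.3 RPKM in CCL21+, 25.3, 23.5, and 20.1 RPKM in RANK+, and 42.2 and 41.7 RPKM in double-negative TECs. The 3 populations did not overlap, and the log2 fold change of RANK+ over CCL21+ TECs was -1.71 (SE 0.12, edgeR adjusted p = 3.33e-06). Exons of Plxna1 share 970 bases with Gm26811 on the opposite strand. Plxnb1 was at 47.0 ± 3.54 and 25.9 ± 2.17 RPKM (SD, n = 3 each), with a log2 fold change of -0.97 (SE 0.12, edgeR adjusted p = 0.000102) and 257 bases of exon shared with Gm7628 on the opposite strand. Plxna2 was at 5.89, 4.68, and 4.41 RPKM in CCL21+, 3.38, 2.81, and 3.25 RPKM in RANK+, and 2.54 and 2.40 RPKM in double-negative TECs, with a log2 fold change of -0.79 (SE 0.14, edgeR adjusted p = 0.000943). Plxnb2 was abundant in every library, at 56.2, 45.4, and 44.0 RPKM in CCL21+, 48.4, 38.6, and 37.9 RPKM in RANK+, and 37.2 and 44.9 RPKM in double-negative TECs, and its log2 fold change of -0.35 (SE 0.14, edgeR adjusted p = 0.0512) did not pass the test. It passed without CCL21+ replicate 3 (edgeR adjusted p = 0.0192) or RANK+ replicate 1 (0.0295), though its fold change is under the 1.5 that a call required.

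Plxna4 and Nrp2 were receptors of secreted semaphorins with by far their highest level in RANK+ TECs. Plxna4 (chromosome 6, 32144268 to 32588192) was at 0.252, 0.225, and 0.198 RPKM in CCL21+, 8.24, 3.02, and 4.71 RPKM in RANK+, and 0.208 and 0.248 RPKM in double-negative TECs, with a log2 fold change of 4.42 (SE 0.32, edgeR adjusted p = 3.75e-06). Nrp2, the neuropilin that binds Sema3f, was at 0.116, 0.263, and 0.176 RPKM in CCL21+, 4.84, 3.06, and 3.67 RPKM in RANK+, and 0.0551 and 0.0153 RPKM in double-negative TECs, with a log2 fold change of 4.25 (SE 0.42, edgeR adjusted p = 2.59e-05). In both genes every RANK+ library was above every other library, and replicate 1 was the highest. Plxna3 was also higher, at 1.71 ± 0.316 against 0.575 ± 0.137 RPKM (SD, n = 3 each, log2 fold change 1.45, SE 0.24, edgeR adjusted p = 0.000701). Nrp1, the neuropilin that binds Sema3a, stayed under 1 RPKM in all libraries, at 0.876 ± 0.111, 0.850 ± 0.186, and 0.588 ± 0.114 RPKM. The antisense transcripts Plxna4os1 and Plxna4os2 were at 0.0177 and 0.0171 RPKM in RANK+ replicate 1 and at 0 elsewhere, Plxna4os3 was at 0 throughout, and none of the 3 was tested.

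**Figure D4:**
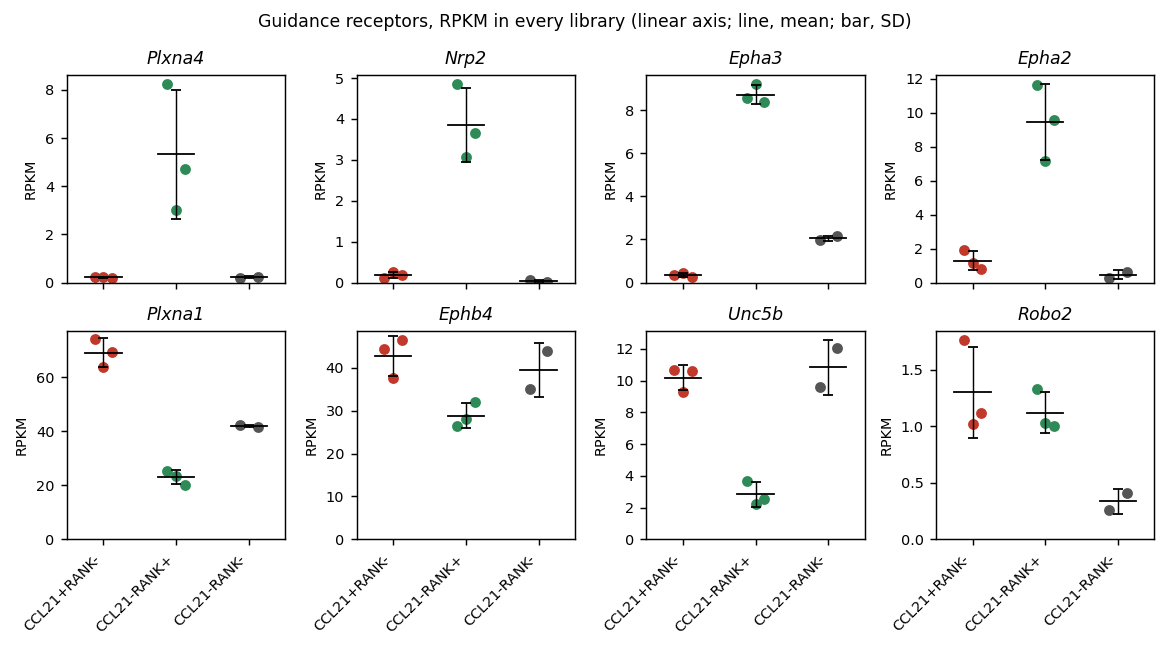
RPKM of 8 guidance receptors in every library on linear axes from 0, with a line for the mean and bars for the SD of each population (n = 3, 3, and 2). Plxna4, Nrp2, Epha3, and Epha2 are highest in the CCL21-RANK+ libraries, Plxna1, Ephb4, and Unc5b are lowest there, and Robo2 is lowest in the CCL21-RANK- libraries.

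Between CCL21+ and double-negative TECs, 8 guidance genes were higher and 2 lower in the CCL21+ TECs. Those called higher were Sema3d, Robo2, Epha2, Sema4d, Plxna2, Efna5, Plxna1, and Robo1, and those called lower were Epha3 and Sema3f. They were 11.8% of the coding guidance genes in the higher direction, where 4.35% of all genes were called, and 2.94% in the lower direction, where 3.66% were. The median log2 fold change was -0.12 for the guidance genes and 0.00 for all genes. That of the guidance genes was -0.03 without double-negative replicate 2 and -0.22 without CCL21+ replicate 2. The formal test of a fold over 1.5 left 2 higher (2.94%, beside 1.97% of all genes) and 2 lower (2.94%, beside 1.18%). By the edgeR adjusted p alone, 12 were higher (17.6%, beside 6.28% of all genes) and 7 lower (10.3%, beside 5.15%), and the libraries did not overlap in 16 in the higher direction (23.5%, beside 20.3%) and 21 in the lower direction (30.9%, beside 24.3%). Sema3d had a log2 fold change of 3.85 (SE 0.42, edgeR adjusted p = 0.000611) and Robo2 of 1.97 (SE 0.27, edgeR adjusted p = 0.00197), and in both genes the CCL21+ libraries were above the double-negative libraries. The other 6 were smaller, from 0.65 for Robo1 to 1.51 for Epha2. Epha3 had a log2 fold change of -2.51 (SE 0.21, edgeR adjusted p = 0.000189). Sema3f, a ligand of Nrp2, was at 4.85, 4.91, and 4.34 RPKM in CCL21+, 8.99, 5.28, and 6.12 RPKM in RANK+, and 8.80 and 13.3 RPKM in double-negative TECs (log2 fold change -1.21, SE 0.20, edgeR adjusted p = 0.00519).

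Parathyroid markers moved with this comparison. All 4 were called higher in CCL21+ than in double-negative TECs, where 4.35% of all genes were. The log2 fold changes were 7.21 for Pth, 7.73 for Chga, 6.74 for Gcm2, and 3.52 for Casr. CCL21+ replicate 1, the library with the highest parathyroid sum, was the highest CCL21+ library for all 8 guidance genes called higher, as it was for 69.3% of all genes called higher. Without it 6 guidance genes were called higher and 2 lower, and the share of all genes called in that fit is not given. The part of parathyroid cells in these genes was not tested.

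This comparison had only 2 double-negative libraries, so that leaving either out left 1 in that population. Fewer guidance genes were then called higher, but the share of all genes called in such fits is not given here. Whether the fall was particular to guidance genes therefore cannot be told. Without RANK+ replicate 1, which enters the shared estimate of spread, 4 guidance genes were called lower. Epha2 (edgeR adjusted p = 0.281 and 0.0586 without double-negative replicate 1 and 2), Robo1 (0.237 and 0.107), and Efna5 (0.107 and 0.0754) were lost without either. Sema4d was lost without replicate 1 (0.105), and Plxna1 (0.116), Plxna2 (0.0553), and Sema3f (0.0687) without replicate 2. Epha2 and Robo1 were also lost without CCL21+ replicate 1 (0.108 and 0.0826) or replicate 2 (0.0897 and 0.102), and Epha2 without RANK+ replicate 2 or 3 (0.0521 and 0.0731). Sema3d, Robo2, and Epha3 passed the edgeR test whichever library was left out.

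Against the reporter-negative TECs, 21 guidance genes were higher and 16 were lower in RANK+ TECs. They were 30.9% of the coding guidance genes in the higher direction, where 14.4% of all genes were called, and 23.5% in the lower direction, where 15.1% were, and the median log2 fold change was 0.52 for the guidance genes and 0.06 for all genes. The libraries did not overlap in 34 guidance genes in the higher direction (50.0%, beside 37.1% of all genes) and 24 in the lower direction (35.3%, beside 32.7%). This comparison shares its RANK+ libraries with that of the reporter-positive populations, and so the values are given for their own sake. Higher were 8 of 20 semaphorins, 4 of 7 Slits and Robo receptors, 3 of 8 netrins and Unc5 receptors, 3 of 14 Eph receptors, 3 of 11 plexins and neuropilins, and none of 8 ephrins. Among the genes called, the largest log2 fold changes were those of Slit1 (7.59), Nrp2 (6.63, SE 0.58), Sema3b (6.45, SE 0.54), and Ntn5 (5.90, SE 0.34), with edgeR adjusted p-values between 1.23e-07 and 1.5e-05. Slit3 (2.40, SE 0.38, edgeR adjusted p = 0.000628), Robo2 (1.63, SE 0.27, edgeR adjusted p = 0.000827), and Robo1 (0.63, SE 0.16, edgeR adjusted p = 0.00975) passed here beside Slit1, Robo1 not without double-negative replicate 1 (edgeR adjusted p = 0.101).

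The genes that were lower than in double-negative TECs included 4 ephrins and 4 Eph receptors. Unc5b (-2.06, SE 0.17), Efna4 (-1.59, SE 0.27), Efna3 (-1.45, SE 0.38), Plxnc1 (-1.40, SE 0.38), and Ephb6 (-1.39, SE 0.13) had the lowest log2 fold changes of the genes called, with edgeR adjusted p-values from 8.36e-06 to 0.0132. Plxnc1, a receptor of Sema7a, was at 0.841, 0.828, and 1.21 RPKM in CCL21+, 0.792, 0.239, and 0.409 RPKM in RANK+, and 1.19 and 1.10 RPKM in double-negative TECs, so that the mean of the receptor was lowest in the population where that of its ligand was highest. Plxnc1 shares 115 bases of exon with Gm48718 on the same strand, Efna3 344 bases with Gm15998 and Efna4 168 bases with 4731419I09Rik on the opposite strand. Epha4 (-0.79, SE 0.16), Epha7 (-1.08, SE 0.18), and Sema6c (-0.79, SE 0.24) were lower too, the edgeR adjusted p-values being 0.00302, 0.000882, and 0.021. Not every called gene was followed through the alternatives, and for those that were, edgeR adjusted p-values are given in brackets. Efna3 (0.0585 and 0.0633) and Plxna3 (0.0581 and 0.136) were lost without double-negative replicate 1 and without replicate 2. Plxnc1 (0.0796) and Unc5a (0.116) were lost without replicate 1, as was Robo1 above. Sema3f (0.11) and Sema6c (0.207) were lost without replicate 2. In that fit 19 guidance genes were called higher, so that a call besides that of Plxna3 was lost as well. Without RANK+ replicate 3 the calls for Plxnc1 (0.0605), Unc5a (0.0774), and Sema6c (0.084) were lost, as was Sema6c without RANK+ replicate 2 (0.0533). Unc5a also missed the threshold with DESeq2 size factors (0.0518) and with at least 10 counts in every library (0.0634), and Sema6c with DESeq2 size factors (0.066), with at least 10 counts in every library (0.0842), and in the DESeq2 Wald test (adjusted p = 0.0525).

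In all, 19 coding guidance genes had a mean of at most 1 RPKM in every population, and 14 of them were highest in RANK+ (73.7%, beside 76.8% of the 4302 protein-coding genes tested that were as low), 4 in double-negative, and 1 in CCL21+ TECs. Among them, the endothelial receptor Robo4 and the genes Robo3, Sema3g, Sema4f, Epha6, Epha8, Unc5d, and Plxnb3 had their highest level in RANK+ TECs, and Epha5 in double-negative TECs (0.0981, 0.0740, and 0.0921 RPKM in CCL21+, 0.111, 0.0596, and 0.0461 RPKM in RANK+, and 0.429 and 0.403 RPKM in double-negative TECs). Epha8 was at 1.16, 0.368, and 0.551 RPKM in RANK+ TECs and at 0 in all CCL21+ libraries, and Sema3g at 1.06, 0.220, and 0.438 RPKM against 0.0131 RPKM at most elsewhere. Fold changes are not given for Epha8 and Sema3g, because the counts in the lower population were at or near 0.

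Some markers of cells other than TECs were also higher in the RANK+ population. For the counts below, 15.4% of all genes tested were called higher than in CCL21+ TECs and 14.4% higher than in double-negative TECs. Of 7 mesenchyme markers, Pdgfrb, Col1a1, Dcn, and Lum were called higher than in CCL21+ TECs. The summed level of the 7 was 49.05, 25.1, and 31.2 RPKM in RANK+, 3.31, 3.07, and 2.10 RPKM in CCL21+, and 3.59 and 2.00 RPKM in double-negative TECs. Col1a1 was the most abundant in RANK+ TECs (24.0, 7.43, and 15.4 RPKM), followed by Dcn (11.3, 8.79, and 6.43 RPKM) and Pdgfrb (6.82, 4.06, and 4.83 RPKM). The defining gene Pdgfra was at 0.122 RPKM and Twist1 at 0.150 RPKM at most there. Both lay the other way, though too low to be called. Pdgfra was at 0.263, 0.171, and 0.154 RPKM in CCL21+ TECs (log2 fold change -1.67, edgeR adjusted p = 0.0283). Twist1 was at 1.28, 0.815, and 0.769 RPKM in CCL21+ TECs (log2 fold change -3.89, edgeR adjusted p = 0.00477). Of 6 markers of neurons and glia 2 were called higher, Sox10 and Tubb3, and of 6 endothelial markers 1, Tek. The endothelial count was thus near the share of all genes. The 6 markers of neurons and glia summed to 3.88, 2.73, and 3.06 RPKM in RANK+ TECs, led by Tubb3 (1.32, 0.833, and 1.54 RPKM) and Sox10 (1.16, 1.01, and 0.851 RPKM), against 0.494 RPKM at most elsewhere. The 6 endothelial markers summed to 4.25, 2.36, and 1.90 RPKM, led by Tek, against 0.467 RPKM at most elsewhere, and Emcn and Kdr were at 0.0420 and 0.153 RPKM at most. Of 7 haematopoietic markers, Cd4, Lck, and Cd74 were called higher in RANK+ than in CCL21+ TECs, with log2 fold changes of 2.59, 1.00, and 0.78, and these 3, Cd8a, and Rag1 were called higher than in double-negative TECs. Cd74, which TECs also use as part of antigen presentation, was the most abundant, at 1363, 1297, and 1451 RPKM in CCL21+, 3437, 1964, and 2313 RPKM in RANK+, and 817 and 1045 RPKM in double-negative TECs. Cd4 was at 0.736, 0.200, and 0.216 RPKM in CCL21+, 4.11, 1.55, and 2.04 RPKM in RANK+, and 0.140 and 0.0450 RPKM in double-negative TECs, and Ptprc, which encodes CD45, was at 0.576 RPKM or less in every library. RANK+ replicate 1 had the highest sum of these 4 lists, and it was also the highest of the 3 in 11 of the 18 guidance genes called higher and in 65.9% of all genes called higher. Slit1, Ntn5, and Epha3 were nearly equal in the 3 libraries. Without RANK+ replicate 1, 17 guidance genes were called higher than in CCL21+ TECs and 13 lower, and the share of all genes in that fit is not given. Cycling markers differed too, with summed levels of 17.9, 20.1, and 22.2 RPKM in CCL21+, 67.0, 88.1, and 78.9 RPKM in RANK+, and 42.4 and 58.5 RPKM in double-negative TECs. In the other direction, all 4 parathyroid markers were called lower in RANK+ than in CCL21+ TECs, where 15.4% of all genes were. Without CCL21+ replicate 1, which held the most of these markers, 18 guidance genes were called higher and 14 lower, again with no share of all genes given. The part of other cells in the guidance genes, higher or lower, was not tested.

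Other molecules of the same pathways were examined as 2 lists. Of 19 further receptors, co-receptors, and ligands, 3 were higher (15.8%, beside 15.4% of all genes) and 4 were lower (21.1%, beside 15.4%) in RANK+ than in CCL21+ TECs, with a median log2 fold change of 0.27. Higher were L1cam, an adhesion molecule of axons (0.0730, 0.0680, and 0.0148 RPKM in CCL21+ and 2.45, 1.08, and 1.57 RPKM in RANK+ TECs, log2 fold change 4.87), Ntng2, a membrane-anchored relative of the netrins (0.477, 0.250, and 0.227 RPKM in CCL21+ and 10.1, 5.68, and 6.24 RPKM in RANK+ TECs, log2 fold change 4.38), and Lrrc4c (0.326, 0.249, and 0.329 RPKM in CCL21+ and 0.989, 1.21, and 1.32 RPKM in RANK+ TECs, log2 fold change 1.85), at edgeR adjusted p-values of 6.94e-05, 5.34e-06, and 0.00432. Lower were Rgma, a repulsive ligand of Neo1 (21.8, 22.1, and 24.0 RPKM in CCL21+ and 2.30, 3.64, and 2.92 RPKM in RANK+ TECs, log2 fold change -3.04), and Flrt2, Flrt1, and Flrt3, which bind Unc5 receptors (-2.73, -1.84, and -1.73), at edgeR adjusted p-values of 1.7e-06, 0.00035, 0.000537, and 2.49e-05. Flrt2 was at 15.7, 5.06, and 6.24 RPKM in the CCL21+ libraries, again highest in replicate 1. The netrin receptor Dcc was at 0.0848 RPKM at most in any library, and Neo1, its relative, was at 14.3 ± 0.254, 12.8 ± 1.39, and 13.8 ± 1.81 RPKM (SD, n = 3, 3, and 2).

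Of 36 intracellular effectors of guidance receptors, 6 were higher (16.7%, beside 15.4% of all genes) and 13 were lower (36.1%, beside 15.4%) in RANK+ than in CCL21+ TECs, and their median log2 fold change was 0.00. Cdc42ep1, Chn1, and Srgap1 had the largest positive log2 fold changes of those called (1.88, 1.85, and 1.48), at edgeR adjusted p-values of 0.0176, 0.000695, and 0.000199. Cdc42ep1 was at 2.31, 0.646, and 0.850 RPKM in the RANK+ libraries, and its call was lost without RANK+ replicate 1 (log2 fold change 1.19, edgeR adjusted p = 0.0841, mean 0.748 RPKM). Vav3, an exchange factor used by Eph receptors, Rras, a GTPase inactivated by plexins, and Mical3, of the MICAL family of actin-oxidizing enzymes, had the lowest log2 fold changes (-2.10, -1.99, and -1.62), at edgeR adjusted p-values of 2.04e-06, 7.4e-06, and 2.69e-05. Rras was at 35.8, 26.9, and 26.7 RPKM in CCL21+, 8.75, 8.66, and 6.97 RPKM in RANK+, and 23.1 and 27.8 RPKM in double-negative TECs. Against double-negative TECs, RANK+ TECs had 8 effectors higher (22.2%, beside 14.4% of all genes) and 11 lower (30.6%, beside 15.1%), and CCL21+ TECs had 7 higher (19.4%, beside 4.35%) and 1 lower (2.78%, beside 3.66%). For the 19 further receptors, co-receptors, and ligands these counts were 3 (15.8%) and 4 (21.1%) for RANK+ TECs and 2 (10.5%) and 2 (10.5%) for CCL21+ TECs. For both lists these counts rest on the same 2 double-negative libraries. They are given without fits that leave out single libraries, among them CCL21+ replicate 1 with its parathyroid transcript.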

How the data were processed

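RNA-sequencing of 8 libraries of sorted E17 TECs was analysed. The submitters' processing notes name bcl2fastq 2.20, Trimmomatic, STAR 2.5.1, RSEM 1.3.1, and mm10, whereas the study's methods name CLC Genomics Workbench. The library kit is TruSeq Stranded Total RNA in the methods and NEBNext Ultra II Directional in the labels. The authors deposited expected counts per gene from RSEM, which were neither normalized nor filtered, and in each library between 4.47% and 5.94% of values had decimals, which were rounded for testing. Gene positions and exon lengths came from GENCODE M21 (GRCm38), where all 55450 identifiers matched.

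All libraries entered a single edgeR 4.0.16 fit (R 4.3.3) of 3 group means with TMM scaling, the default expression filter (21451 genes), the quasi-likelihood test, and Benjamini-Hochberg adjustment over all genes tested. Calls required an adjusted p under 0.05, a fold over 1.5, and a mean over 1 RPKM in the higher population. RPKM used library totals, of which Gm26917 took 6.89% to 19.4% and Gm42418 1.47% to 10.7%. Replicates differed beyond sampling noise, the biological coefficient of variation being 0.326 in edgeR's common estimate. Standard errors were derived from edgeR results, as the size of the log2 fold change over the square root of the quasi-likelihood F statistic. They rest on a spread estimate shared by the 3 populations. Both they and the SDs cover the spread between libraries. The model code was tested on simulated data. Figures used matplotlib 3.10.9.

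Genes given in every library were the 2 most abundant members of each family and, for each family, comparison, and direction, the called member with the largest fold change. Up to 3 more called members were given as means, by fold change alone, or in every library. Genes named outside this rule (Sema3a, Sema3g, Sema4a, Sema4f, Sema6d, Nrp1, Plxnb3, Efna2, Efnb3, Epha5, Epha6, Epha8, Ntn3, Unc5c, Unc5d, Slit2, Robo3, and Robo4, and Neo1 and Dcc) were chosen after their values were seen. The members, pathway lists, and marker lists were chosen with earlier results of these data known. Alternatives were DESeq2 1.42.0 (Wald test or size factors), upper-quartile scaling, other filters and thresholds, fits of only the 2 populations compared, a block for replicate number, removal of Gm26917 and Gm42418, and leaving out each library.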

Additional observations from a re-analysis of the deposited data

How the results depend on the processing

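Of 75 results for named genes, 55 kept their direction and their side of the edgeR threshold under every alternative run, and of 1200 alternative values 1134 did so, 47 lost the threshold, 3 gained it, and 16 turned sign. A formal edgeR test of a fold over 1.5 called 8 guidance genes lower between the reporter-positive populations (15 in the report) and 2 higher in CCL21+ than in double-negative TECs (8 in the report). The 2 genes lower in that comparison became 4 without an expression filter, 5 with only the libraries compared, 4 with the DESeq2 Wald test, and 7 with the adjusted p alone. For the fits without a library, the shares of all genes called are not given, so that their counts describe the guidance genes alone. Leaving out each library gave 17 to 20 genes higher and 13 to 15 lower between the reporter-positive populations, 3 to 8 higher and 1 to 4 lower for CCL21+ against double-negative TECs, and 19 to 22 higher and 13 to 20 lower for RANK+ against double-negative TECs. The uncalled difference between the reporter-positive populations turned sign for Efnb1 (0.0307 with DESeq2 size factors, 0.0169 with upper-quartile scaling, 0.0784 with at least 10 counts in every library, 0.0302 with the DESeq2 Wald test, and a range of -0.25 to 0.10 when each library was left out) and for Robo1 (0.0754, 0.0629, 0.123, and 0.075 in the same order, 0.0357 without a filter, 0.0115 without Gm26917 and Gm42418, and a range of -0.14 to 0.10 when each library was left out). The median log2 fold change of all genes and of the guidance genes between the reporter-positive populations was 0.20 and 0.34 with DESeq2 size factors, 0.02 and 0.08 with at least 10 counts in every library, 0.40 and 0.30 without a filter, and 0.44 and 0.34 with the DESeq2 Wald test. For RANK+ against double-negative TECs these were 0.20 and 0.67, 0.04 and 0.16, 0.38 and 0.58, and 0.47 and 0.67. Same-numbered libraries of the reporter-positive populations correlated in their deviations at 0.126, 0.0485, and 0.0707, each higher than with the other numbers. This is a hint from the data and not the design. Deviations were taken from the population mean and cancel out within a population, so that the values are not independent of each other. Double-negative libraries correlated with libraries of their number at -0.0528 and -0.117 for CCL21+ and at -0.0519 and -0.0411 for RANK+ TECs. In the fit with the replicate block 74 of the 75 results stayed on their side and Plxnb2 passed (log2 fold change -0.34, edgeR adjusted p = 0.0367). The causes were not tested. With 2 double-negative libraries, comparisons with that population rest on a spread shared with the other populations, and genes near 3 counts cannot be compared at this depth.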
